A study of Mus musculus with 2 samples.

Results

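The sarcomeric myosin heavy chains were examined in gastrocnemius (GAS) muscle of mice that lack GDE5 in skeletal muscle. GDE5, encoded by Gpcpd1, is the enzyme that splits glycerophosphocholine into choline and glycerol 3-phosphate. Members were all probes that the arrays name Myh1, Myh2, Myh3, Myh4, Myh6, Myh7 or Myh8, which gave 18 probes of 7 genes out of 41174 probes carrying 27570 gene names. The RNA came from male WT and *Gde5* skKO mice on a C57BL/6 background, given a normal diet and aged 15 weeks. The labels do not say whether the mice were fed, fasted or given glucose before sampling. The paper describes array data after a glucose injection and further data with fasting, without stating which of them these arrays hold. The skKO mice carry *Gde5* flox/flox alleles with loxP sites around exon 11 and an HSA-Cre transgene, whose human skeletal actin promoter limits Cre to skeletal muscle fibers, so that other cells of the muscle keep the gene. The labels call the controls only wild-type, and they give 5 mice per genotype without saying whether RNA was pooled. There were 2 two-color arrays, on which both genotypes compete for the same spots. WT RNA carried Cy3 and skKO RNA carried Cy5 on array 1, and the dyes were swapped on array 2. Both arrays lie on 1 slide. It is not stated whether they hold the same RNA, so whether their difference includes any spread between mice is not known.

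Myosin heavy chain is the motor of the thick filament. Its isoform sets the shortening speed and the energy cost of a muscle fiber. Adult limb muscle of mice uses Myh7 (type I, slow), Myh2 (type IIa, fast oxidative), Myh1 (type IIx) and Myh4 (type IIb, the fastest), and Myh6 is the alpha chain of the heart. Myh3 (embryonic) and Myh8 (neonatal) serve developing muscle, fall silent after birth and are known to return in regenerating or denervated fibers. The fast and developmental genes lie side by side on chromosome 11, and the cardiac and slow pair lies head to tail on chromosome 14.

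The starts of the chromosome 11 genes are shown because neighbors there gave unlike ratios. The RefSeq promoter table, on GRCm38.p6, held each of the 7 genes, and the 250 bases before each start were searched. The sequences below are the last 200 of them, on the plus strand, from chr11:67078100-67078299 for Myh3, chr11:67170827-67171026 for Myh2, chr11:67199902-67200101 for Myh1 and chr11:67237612-67237811 for Myh4. Capitals mark TATAAA and the longest run that Myh1, Myh2 and Myh4 share.
Myh3: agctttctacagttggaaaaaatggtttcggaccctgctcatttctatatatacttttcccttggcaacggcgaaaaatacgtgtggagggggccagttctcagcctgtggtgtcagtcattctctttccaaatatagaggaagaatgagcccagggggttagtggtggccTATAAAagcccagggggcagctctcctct
Myh2: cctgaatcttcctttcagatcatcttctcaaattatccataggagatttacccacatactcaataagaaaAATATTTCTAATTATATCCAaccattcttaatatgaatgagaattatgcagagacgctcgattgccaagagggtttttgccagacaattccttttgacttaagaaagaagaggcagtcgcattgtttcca
Myh1: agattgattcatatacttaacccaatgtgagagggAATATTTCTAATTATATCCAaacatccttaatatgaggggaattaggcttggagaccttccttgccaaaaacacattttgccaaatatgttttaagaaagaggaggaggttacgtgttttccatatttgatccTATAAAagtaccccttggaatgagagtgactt
Myh4: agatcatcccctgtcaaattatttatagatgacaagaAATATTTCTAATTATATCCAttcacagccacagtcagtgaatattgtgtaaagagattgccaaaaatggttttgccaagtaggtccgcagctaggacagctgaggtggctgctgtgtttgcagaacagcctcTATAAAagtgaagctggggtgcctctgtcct

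The shared run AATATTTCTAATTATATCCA has 20 bases, begins 130 bases before the start of Myh2, 165 before Myh1 and 163 before Myh4, and was found in no other of the 32851 promoter windows of this length (3 windows, 0.00913%). The closest window in Myh8 matched 18 of its bases and the closest in Myh3 matched 12. Searched on both strands, TATAAA stood in the windows of Myh1, Myh3, Myh4 and Myh8 and in 12.4% of all windows. The E-box CANNTG stood in 5 members (Myh3, Myh4, Myh6, Myh7 and Myh8) and in 66.2% of all windows. A CArG box was found in Myh4 alone among the members (1.47% of all windows), and a MEF2 site in Myh1, Myh4 and Myh8 (2.92%). TATAAA on one strand lies within the MEF2 site of these genes. These are matches of letters and not measured binding.

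The deleted gene was read first as a check of the labels. It is listed under an older name with 4 probes on chromosome 2, and 3 of them were called lower in *Gde5* skKO muscle. Their log2 ratios of skKO over WT lay between -3.07 and -2.59 on array 1 and between -3.29 and -3.24 on array 2. The remaining probe, from 132256048 to 132256107 (mm8), had a mean ratio of -0.26 and was not called. Muscle identity was also as labeled. All 12 markers of skeletal muscle fibers fixed for this purpose, among them Acta1, Ckm and Tnnt3, had clear signal in WT and skKO alike on each array, and none was called.

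For a call, each array had to give a p-value under 0.05 in the scanner software's error model, and the ratios of skKO over WT had to point the same way. The test covered 19092 probes, those that the software marks as well above background in 1 or both channels of each array. Of these, 283 (1.48%) were called higher in *Gde5* skKO muscle and 301 (1.58%) lower. For comparison, 321 probes (1.68%) passed the threshold on both arrays in opposite turned directions, which is the direction of a dye effect. Among the myosin heavy chains 14 of the 18 probes passed the filter, 4 of them (28.6%) were called higher and 0 were called lower. The called probes were both probes of Myh3, 1 of 3 probes of Myh2 and 1 of 2 probes of Myh6. Probes of a gene are numbered here in the direction of transcription, and the error given with a ratio is that of the software for that spot.

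**Figure D1:**
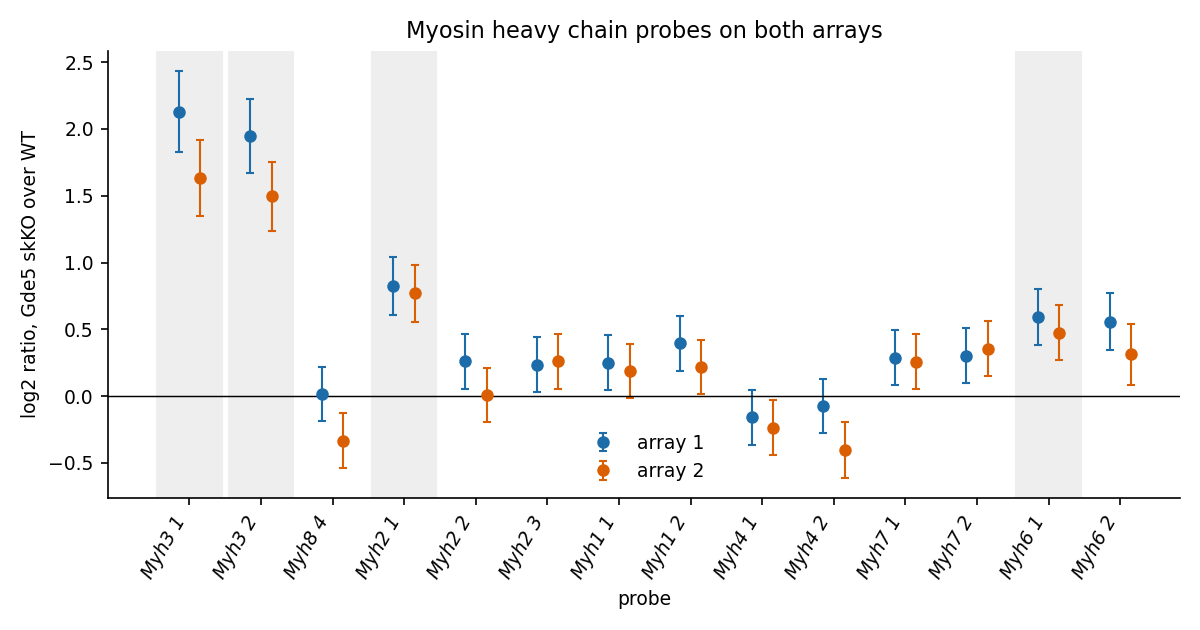
Log2 ratio of Gde5 skKO over WT (vertical axis) for the 14 myosin heavy chain probes tested, with array 1 in blue and array 2 in orange. Bars are the software's error of each ratio and shaded columns are the 4 called probes, and both Myh3 probes stand above all others on each array.

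Myh3, the embryonic heavy chain, had the highest ratios of the family's tested probes as computed by the scanner software. Probe 1 lies on chromosome 11 from 66917377 to 66917581 (mm8, plus strand) and overlaps probe 2, from 66917550 to 66917609, so the probes share part of their target and are not separate evidence. Probe 1 had a processed signal of 420 in skKO and 95.9 in WT on array 1, and of 366 in skKO and 118 in WT on array 2. Probe 2 had 410 in skKO and 106 in WT on array 1, and 384 in skKO and 136 in WT on array 2. Every skKO signal lay above every WT signal of the same probe, and all of them were well above background.

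The log2 ratios of Myh3 probe 1 were 2.13 ± 0.30 on array 1 and 1.63 ± 0.28 on array 2, a 3.68-fold difference in the geometric mean of both. Those of probe 2 were 1.95 ± 0.28 and 1.49 ± 0.26, a 3.30-fold difference. By mean ratio they ranked 2 and 6 among the 283 probes called higher. The size changed under other background corrections and normalizations. With normexp correction and loess normalization in limma, the mean log2 ratios were 0.70 for probe 1 and 0.86 for probe 2. With no background subtraction they were 0.76 and 0.92. The order was not kept for probe 1, which lay below Myh2 probe 1 after loess (0.76) and without background subtraction (0.77). The direction was the same in each case, and limma's moderated test gave Benjamini-Hochberg adjusted p-values of 0.0440 and 0.0139. That test called 42 probes (0.22%) higher. In RNA of whole muscle, a change in the number of fibers that express a gene and a change in RNA per fiber cannot be told apart.

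Myh8, the neonatal heavy chain, was not called. Its probes 1, 2 and 3, spread from 67096984 to 67111076, stayed near background in every channel of either array, with processed signals between 5.59 and 43.9. Probe 4, from 67124618 to 67124677, was bright in both genotypes. Its signal was 45862 in skKO and 45373 in WT on array 1, and 40454 in skKO and 51039 in WT on array 2. The groups overlapped, the ratios were 0.02 ± 0.20 and -0.34 ± 0.21, and the probe was not called. The probes of Myh8 thus disagree on whether the gene has signal at all. Neighboring heavy chains are near-identical over long stretches, and whether probe 4 also binds their RNA was not tested.

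**Figure D2:**
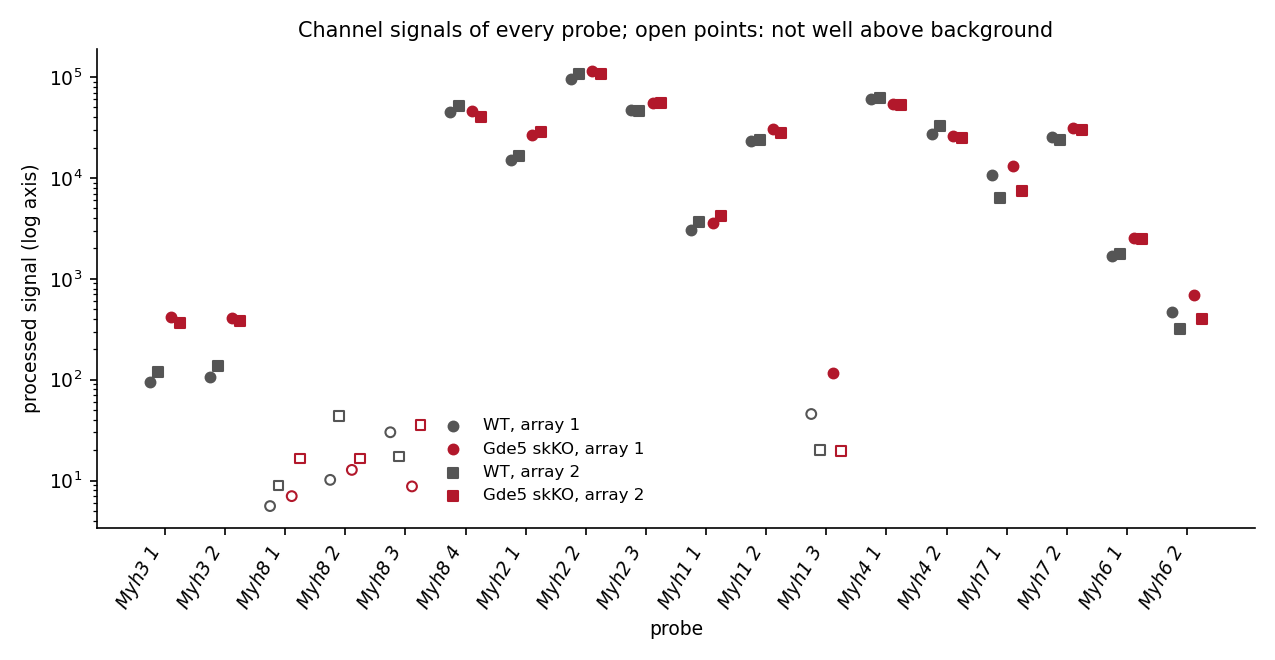
Processed signal (vertical log axis) of all 18 myosin heavy chain probes in WT (grey) and Gde5 skKO (red), with circles for array 1, squares for array 2 and open symbols where a channel was not well above background. Signals are compared within a probe only; the skKO points of both Myh3 probes lie between 366 and 420 and the WT points between 95.9 and 136.

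The paper reports from qPCR that mRNA of fiber types was comparable in both genotypes, and it lists primers for Myh7, Myh2, Myh1 and Myh4. Whether the same mice were used there is not stated. On the arrays, among the adult fast isoforms, Myh2 (type IIa) was higher by 1 of its 3 probes. Probe 1, from 67009004 to 67009168 on chromosome 11, had a processed signal of 26680 in skKO and 15058 in WT on array 1, and of 28351 in skKO and 16634 in WT on array 2. The genotypes did not overlap. The ratios were 0.83 ± 0.22 and 0.77 ± 0.22, a 1.74-fold difference, and limma's adjusted p-value was 0.0162 with a mean log2 ratio of 0.76 after loess. This probe spans 165 bases of the genome and not 60 as 14 of the 18 probes do, so its target crosses a gap in the genomic sequence.

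Probes 2 and 3 of Myh2, at 67013603 to 67013662 and 67013645 to 67013704, overlap each other and were not called. Probe 2 had a signal of 114659 in skKO and 95762 in WT on array 1 and of 107210 in skKO and 106567 in WT on array 2. Its ratios were 0.26 ± 0.21 and 0.01 ± 0.20. Probe 3 had ratios of 0.23 ± 0.21 and 0.26 ± 0.21. Both were higher in skKO on each array, by less than 2 errors. Probe 1 exceeded probe 2 by 0.57 (combined error 0.30) on array 1 and 0.76 (0.30) on array 2, and it exceeded probe 3 by 0.59 (0.30) and 0.51 (0.30). The brightest probe by mean signal was probe 2, so the gene as a whole was not called by the rule used for gene lists.

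Myh1 (type IIx) was not called. Probe 1, from 67025523 to 67026625, had ratios of 0.25 ± 0.21 and 0.19 ± 0.20. Probe 2, from 67040631 to 67040690, had a signal of 30715 in skKO and 23363 in WT on array 1 and of 27891 in skKO and 23970 in WT on array 2, with ratios of 0.39 ± 0.21 and 0.22 ± 0.21. Both probes read higher in skKO on both arrays by less than 2 errors. Probe 3, also named Myh1, lies on the opposite strand, from 67040695 to 67040754, and reached a level well above background in the skKO channel of array 1 only, so it was not tested.

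Myh4 (type IIb) was the one adult isoform with ratios below 0 on both arrays, and it was not called either. Probe 1, from 67075497 to 67075556, had a signal of 53808 in skKO and 60094 in WT on array 1 and of 53041 in skKO and 62444 in WT on array 2. Its genotypes did not overlap, and its ratios were -0.16 ± 0.20 and -0.24 ± 0.21. Probe 2, from 67076527 to 67076586, had ratios of -0.07 ± 0.20 and -0.40 ± 0.21. On array 1 the difference between genotypes was smaller than the error for both probes.

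The slow and cardiac pair on chromosome 14 read higher in *Gde5* skKO muscle by every probe, and 1 of its 4 probes was called. Myh7, the slow type I chain, had 2 overlapping probes on the minus strand. Probe 1, from 53924903 to 53924962, had ratios of 0.29 ± 0.21 and 0.26 ± 0.21. Probe 2, from 53924898 to 53924957, had a signal of 31005 in skKO and 25165 in WT on array 1 and of 30124 in skKO and 23542 in WT on array 2. Its genotypes did not overlap, its ratios were 0.30 ± 0.21 and 0.36 ± 0.21, and it was not called. After normexp and loess, probe 1 had ratios of -0.35 on array 1 and 0.72 on array 2, so the arrays disagreed in sign there, while probe 2 had 0.32 and 0.34.

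Myh6, the alpha chain of heart muscle, was higher by probe 1. This probe, from 53900628 to 53900687 on the minus strand, had a signal of 2520 in skKO and 1674 in WT on array 1, and of 2469 in skKO and 1776 in WT on array 2. The genotypes did not overlap. The ratios were 0.59 ± 0.21 and 0.48 ± 0.21, a 1.45-fold difference, and limma's adjusted p-value was 0.201. Probe 2, whose target spans 53898964 to 53900549, had ratios of 0.56 ± 0.21 and 0.31 ± 0.23 and passed the threshold on array 1 only. The arrays' annotation lists the Myh7 transcript for both Myh6 probes as well, so signal from Myh7 RNA cannot be told apart from that of Myh6. Of the markers of cardiac muscle, Nppa and Myl7 stayed near background in every channel, and 0 of the 6 tested (Nppb, Tnnt2, Tnni3, Mybpc3, Actc1 and Ryr2) were called. Their median log2 ratios were 0.40 and 0.28, and 3 of the 6 were higher on both arrays and 1 lower on both.

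Taken over the family, 11 of the 14 probes tested read higher in skKO on both arrays, against 29.3% of all probes tested. The 2 probes of Myh4 read lower on both, and Myh8 probe 4 changed sign. Signals of the genotypes did not overlap for several probes without a call either. These were Myh1 probe 2 and Myh2 probes 2 and 3, with skKO higher, and both Myh4 probes, with skKO lower. The share of all probes tested that separate in this way was not counted, so non-overlap is not read as support for a difference. The median log2 ratio of the 14 probes was 0.29 on array 1 and 0.26 on array 2, while the medians over all probes tested were 0.02 and 0.01. The members were chosen by name and some share sequence, so these counts describe the probes and no test was attached to them.

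**Figure D3:**
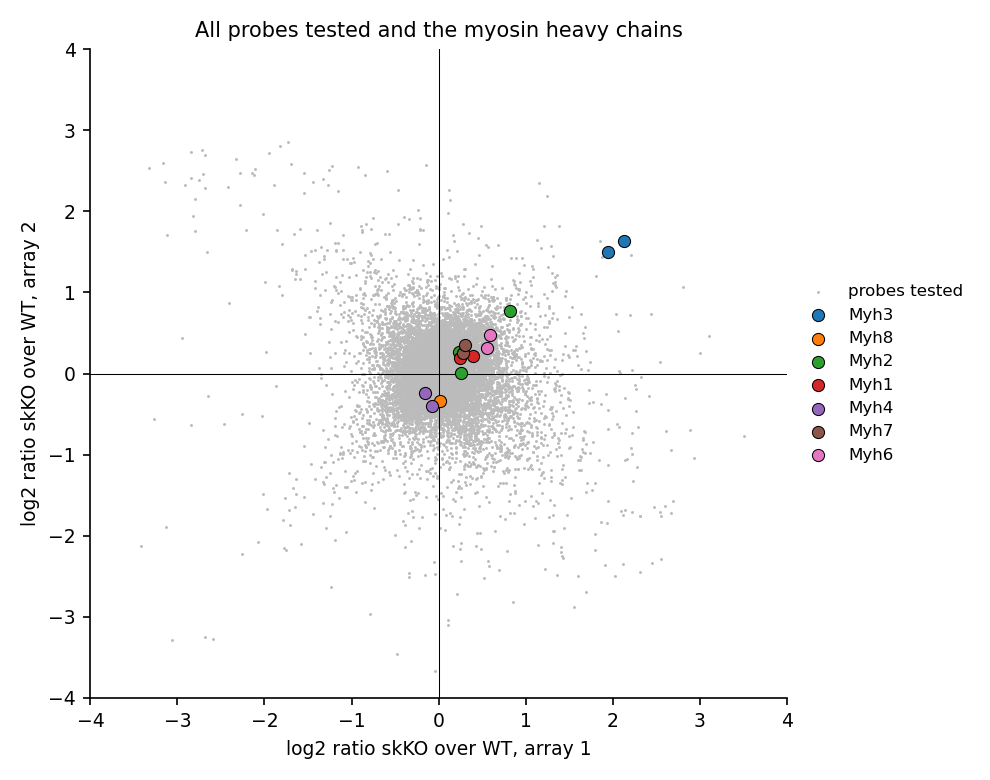
Log2 ratio of Gde5 skKO over WT on array 2 (vertical) against array 1 (horizontal) for the 19092 probes tested (grey) and the myosin heavy chain probes (colored by gene). The 2 Myh3 probes lie far out in the upper right quadrant, Myh2 probe 1 follows, and both Myh4 probes lie below 0 on both axes.

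Of 7 other heavy chain genes, 5 had probes on the arrays and 4 had a probe tested, and none of these was called. Myh7b and Myh15 had no probe under these names and were not analysed here. Myh9 and Myh10 (non-muscle myosins IIA and IIB), Myh11 (smooth muscle) and Myh14 (non-muscle myosin IIC) had at least 1 probe tested each. Myh9 had ratios of 0.11 and -0.36, and Myh11 of -0.18 and -0.03. The brighter Myh10 probe had 0.20 and 0.70, and the tested Myh14 probe had -0.07 and 0.48. The Myh13 probe, in the same cluster of chromosome 11 as the fast genes, stayed near background in every channel.

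Probes of other transcripts lie between the heavy chains. AK036437, between Myh3 and Myh2 at 66990281 to 66990340, had ratios of 0.31 ± 0.23 and 0.67 ± 0.23 and passed the threshold on array 2 only. AK009488, on the opposite strand between the Myh1 probes at 67027858 to 67027917, had ratios of 0.02 ± 0.21 and -0.14 ± 0.21. AK043575, between Myh6 and Myh7 on the strand opposite to both, had 0.05 ± 0.33 and 0.14 ± 0.45. Along the chromosome 11 cluster, called probes of Myh3 and Myh2 thus lie on either side of AK036437, and Myh1, Myh4 and Myh8 follow without a call.

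The remaining proteins of the contractile apparatus were read from gene lists, with the brightest tested probe standing for each gene. Over all 13598 genes tested, 213 (1.57%) were called higher and 235 (1.73%) lower, and the median log2 ratios were 0.01 and 0.02. The slow fiber list holds thin filament and calcium genes and also Myl2, Myl3, Myoz2, Csrp3 and Ankrd2. Of its 12 genes tested, 6 were called higher and 0 lower, with medians of 0.57 on array 1 and 0.68 on array 2. Those not called were Tnnt1, Tnnc1, Tpm3, Atp2a2, Myoz2 and Myl3. The list was chosen with earlier results of these arrays known, so its direction is not independent evidence.

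The called slow fiber genes with the largest ratios were Ankrd2, Sln, Myl2 and Csrp3. Ankrd2, a stretch-responsive ankyrin repeat protein of slow muscle, had ratios of 0.86 and 1.15. Sln, which encodes sarcolipin, an inhibitor of the calcium pump, had 1.00 and 0.68. Myl2, the slow regulatory light chain that binds the neck of Myh7, had a signal of 30014 in skKO and 17183 in WT on array 1 and of 31676 in skKO and 17330 in WT on array 2, with ratios of 0.80 and 0.87. Csrp3, a LIM protein of the Z-disc, had 0.81 and 0.84. Limma's adjusted p-values for these genes lay between 0.00497 and 0.0237, and they were 0.0549 for Tnni1 and 0.102 for Casq2, the other slow fiber genes called. Myh7 itself, the heavy chain partner of Myl2, had the lower ratios given above and was not called.

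Of 12 genes tested in the fast fiber list, 0 were called in either direction, and the medians were -0.02 and -0.14. Mylpf, the fast regulatory light chain that partners with Myh1, Myh2 and Myh4, had ratios of 0.06 and -0.21. In the list of myosin light chains, which also holds the light chain kinase Mylk2, 1 of 9 tested genes was called, which was Myl2 again, and the medians were 0.06 and 0.18. Myl4, the embryonic and atrial essential light chain, had 0.49 and 0.41 without a call.

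Among thick filament partners 2 of 17 tested were called higher and 0 lower, with medians of 0.10 and -0.02. Mybpc1, the slow form of myosin binding protein C, had a signal of 12376 in skKO and 8023 in WT on array 1 and of 13599 in skKO and 8036 in WT on array 2. Its ratios were 0.63 and 0.76. Myom3, an M-band protein that is known from type IIa and slow fibers, had 0.51 and 0.44. By limma's adjusted p-value Mybpc1 (0.0309) was called and Myom3 (0.166) was not. The fast form Mybpc2 had 0.16 and -0.13 and the myosin chaperone Unc45b 0.22 and 0.08, and neither was called.

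**Figure D4:**
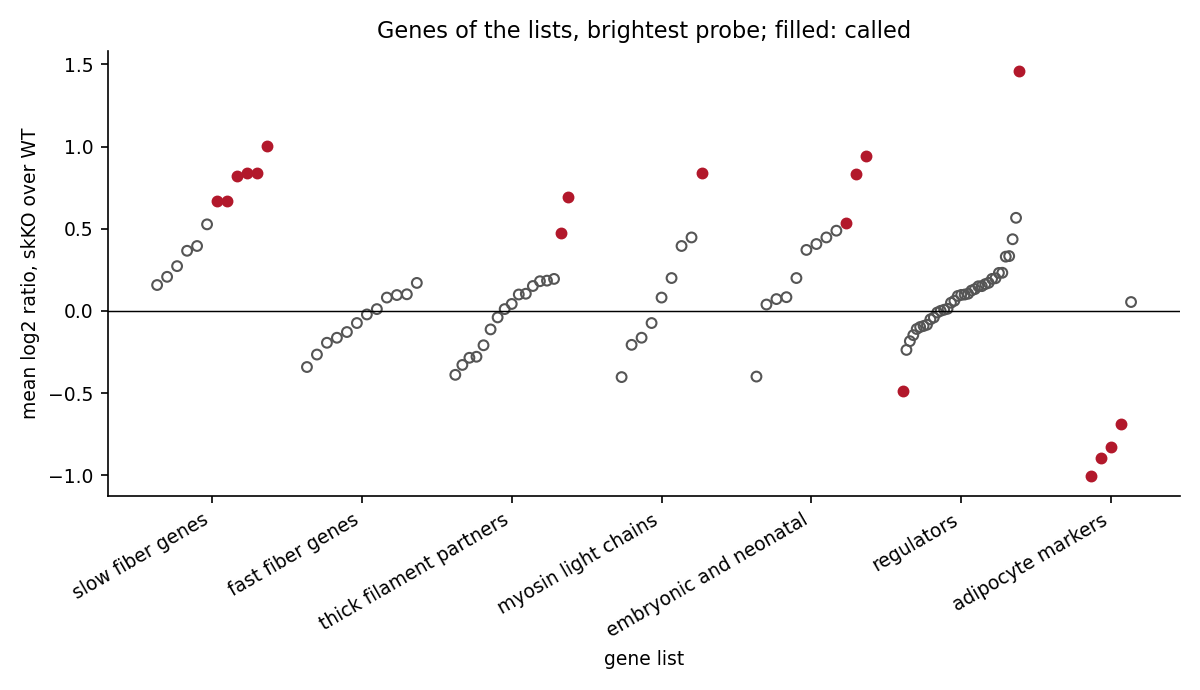
Mean log2 ratio of both arrays (vertical axis) for each tested gene of 6 contractile or regulatory lists and of the adipocyte markers, with filled red points for called genes and open points for genes not called. Of the slow fiber genes 6 of 12 are filled and above 0, of the fast fiber genes 0 of 12, and of the adipocyte markers 4 of 5 are filled and below 0.

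Of the other genes of embryonic and neonatal muscle, 3 of 12 tested were called higher and 0 lower, with medians of 0.30 and 0.34. H19, an imprinted RNA of fetal muscle, had a signal of 10607 in skKO and 5405 in WT on array 1 and of 12924 in skKO and 6848 in WT on array 2, with ratios of 0.97 and 0.92. Chrna1, the alpha subunit of the muscle acetylcholine receptor, had 0.81 and 0.85. Ncam1, a cell adhesion molecule of fetal and denervated fibers, had 0.60 and 0.47. Its other tested probes had mean ratios of 0.18, -0.02 and -0.27 without a call. By limma's adjusted p-value, H19 (0.00668) and Chrna1 (0.0139) were called and Ncam1 (0.266) was not. Igf2, also of this list, was not called by its brightest probe, which had 0.33 and 0.65. Another Igf2 probe was called higher with ratios of 0.57 and 0.89 (limma adjusted p-value of 0.221). Chrng, the fetal receptor subunit, was well above background in 1 of 4 channels and was not tested, and Chrnd was above background in none. Cardiac alpha actin, Actc1, had 0.27 and 0.47 and was not called.

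Of the known regulators of heavy chain genes, 1 of 35 tested was called higher and 1 lower, with medians of 0.15 and 0.08. Tead4, a factor that binds MCAT elements, was called higher with ratios of 2.19 and 0.73, but its WT signal on array 1 was not well above background, so the first of these is uncertain in size. The call was lost when both channels had to be above background, and after normexp and loess the mean log2 ratio was 0.26 with a limma adjusted p-value of 0.599. Tbx15, a factor of glycolytic fibers, was called lower with ratios of -0.55 and -0.43, a call that limma's test did not keep (adjusted p-value of 0.367). Its loess ratios were -0.83 and -0.15. Eya1, a coactivator of fast genes, had -0.09 and -0.11, and Sox6, which represses slow and embryonic heavy chains, had -0.24 and -0.06. Ppargc1a, a coactivator of oxidative fibers, had 0.57 and 0.30. The myogenic factors Myod1 and Myog had 0.16 and 0.23 and 0.18 and 0.01. Apart from Tead4 and Tbx15, none of these regulators was called by its brightest probe. Another probe of Purb, which encodes a DNA-binding protein that represses heavy chain genes, was called lower with ratios of -0.74 and -0.63 (limma adjusted p-value of 0.156). The brightest probe of Purb had -0.22 and -0.26, and neither it nor the remaining probe was called.

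Markers of other cell types were read beside the heavy chains. Of 4 tested markers of satellite cells and myoblasts, 0 were called. Their summed signal was 2011 in skKO and 1826 in WT on array 1 and 2231 in skKO and 2063 in WT on array 2. The Cdh15 probe gave the highest signal, and Myf5 was not above background in any channel. Signals of different probes share no common scale, so such sums follow the brightest probes and are read only between genotypes. Of the markers of nerve and Schwann cells, 0 of 4 tested were called, and Nefl was not above background. Markers of smooth muscle (5 tested), fibroblasts and tendon (6), endothelium (5), leukocytes (3) and blood (2) gave 0 calls.

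Calls were found among adipocyte and liver markers. Of 5 adipocyte markers tested, 4 were called lower (Adipoq, Cfd, Retn and Plin1) and Fabp4, whose probe gave the highest signal, was not, and the median was -0.82 on array 1 and -0.84 on array 2. Adipoq, which encodes adiponectin, had ratios of -0.97 and -1.03. By limma's adjusted p-value Adipoq (0.020) and Cfd (0.0116) were called, and Retn (0.340) and Plin1 (0.313) were not. The summed signal of the list was 42772 in skKO and 42877 in WT on array 1 and 40525 in skKO and 44221 in WT on array 2, most of it from Fabp4, which endothelium also expresses. Lep was not above background in any channel. Of the 5 liver markers Mup1 was called lower with ratios of -0.99 and -0.95, Alb was not called, and Apoa1, Apoa2 and Ttr were not tested. The liver list summed to 1139 in skKO and 2236 in WT on array 1 and to 1178 in skKO and 2262 in WT on array 2, most of it from Mup1. The part of these cells in the heavy chain ratios was not tested.

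The genes most like Myh3 were sought by the distance between pairs of log2 ratios on the 2 arrays, among 12334 genes with signal in both channels on both arrays. The nearest was Scn3b, a subunit of voltage-gated sodium channels, at a distance of 0.09 with ratios of 1.88 and 1.44. Atp1b4, a muscle protein related to sodium pump subunits, followed at 0.17 with 1.85 and 1.63. CB590298, Cstad and Pdzd3 came next at distances of 0.65, 0.66 and 0.70. All 5 were called higher. The measure uses only the 2 ratios and says nothing about shared control.

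The called probes outside Myh3 kept similar mean ratios under these corrections. The mean ratio of Myh2 probe 1 was 0.80 from the scanner software, 0.76 after normexp and loess and 0.77 without background subtraction. For Myh6 probe 1 these means were 0.53, 0.45 and 0.46. Its ratios on the single arrays were less stable, with 0.59 and 0.48 from the scanner software and 0.29 and 0.62 after normexp and loess. Those of Myh6 probe 2, a dimmer probe, were 0.44, 0.22 and 0.24.

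**Figure D5:**
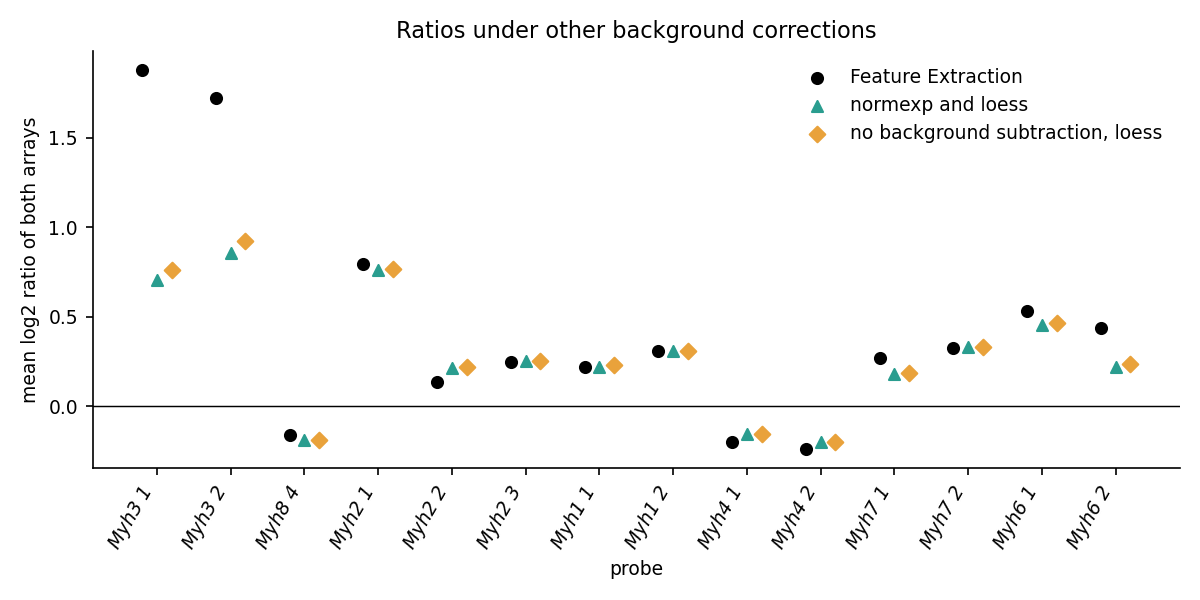
Mean log2 ratio of both arrays (vertical axis) for the 14 probes tested, from the scanner software (black circles), after normexp and loess (green triangles) and with loess without background subtraction (orange diamonds). The Myh3 probes fall from 1.88 and 1.72 to between 0.70 and 0.92, and no probe changes sign.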

How the data were processed

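RNA of WT and *Gde5* skKO GAS muscle was compared on 2 dye-swapped Agilent arrays. Scans were read by the authors in Feature Extraction 9.5.3.1. For every spot the deposited files hold the log10 of Cy5 over Cy3, background-subtracted and dye-normalized, its error (a score in log10 units) and the p-value of an error model. They also give the deposited intensity of each spot and its local background. A deposited table for the series holds the same log10 values.

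Here ratios were converted to log2 and turned to skKO over WT, and the spots of a probe were averaged. Among 43379 non-control spots, 164 (array 1) and 200 (array 2) carried outlier marks and were left out, as were spots whose local background exceeded 5 times the array's median and their own signal (10 and 0 spots). No heavy chain spot was saturated. On array 1, 53.2% of spots kept were well above background in the skKO channel and 45.6% in the WT channel, and on array 2 the shares were 44.6% and 47.4%. Precision is limited by how few arrays there are.

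Probe names were updated through RefSeq, 24375 by accession, 6301 by symbol and 2426 by synonym, and 8072 kept the array's name. Positions are the array annotation's, on mm8. The heavy chains and the gene lists were chosen with earlier results of these data known. Named were all probes of the heavy chains, other Myh genes and Gpcpd1, up to 4 called genes per list by size of the mean ratio, partners of a heavy chain, and the 5 genes nearest to Myh3. Other list genes named were chosen after their values were seen.

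Alternatives used limma 3.58.1 (normexp with an offset of 50, loess, moderated test) under R 4.3.3 and Python 3.11.15. A simulation of this comparison over 19092 probes was used to test the steps, in which the call rule found 199 of 200 changed probes and called 12 unchanged ones. The changes were of a fixed size, larger than the mean ratios of the called Myh2 and Myh6 probes, and were placed in probes above background in every channel. The added noise followed the software's own errors. The counts therefore check the steps and do not measure how often the rule errs on the real arrays. No test across mice was made. Each ratio compares WT and skKO RNA on the same array, so the tests on ratios are already paired by array.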

Additional observations from a re-analysis of the deposited data

How the results depend on the processing

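The 4 heavy chain probes were called higher, and 0 lower, without saturated spots and with a stricter or no filter on dim probes. These filters could not have ended a call, because no heavy chain spot was saturated and the 4 probes were well above background in every channel. The 4 probes were also called with normexp and loess ratios, without background subtraction, from the series table and with centred arrays. There the software's p-value was kept, and only a change of sign could have ended a call. At a software p under 0.01, after adjustment per array, and by limma's adjusted p, 3 probes were called, those of Myh3 and Myh2. Asking also for a mean log2 ratio of 1 or more left 2, both of Myh3. Limma's unadjusted p called 6 heavy chain probes higher (of Myh1, Myh2, Myh3, Myh6 and Myh7) and 0 lower. The methods' t-test called 4 heavy chain probes unadjusted (of Myh2, Myh3 and Myh7) and 0 after Benjamini-Hochberg adjustment, where it called 0 probes of any gene in either direction. Its unadjusted counts over all probes were 641 higher and 587 lower. The counts of all probes moved more: 42 higher and 76 lower by limma's adjusted p, 782 and 773 by its unadjusted p, 128 and 155 at a software p under 0.01, 62 and 88 with that p adjusted per array, and 48 and 72 with a mean ratio of at least 1. By a single array, between 1435 and 2346 probes were called higher and between 1261 and 1791 lower, and 4 to 6 heavy chain probes higher. Among the 7 lists that hold no cell type markers, 12 genes were called higher and 1 lower. With any probe of a gene, 13 were higher and 2 lower, and with limma's unadjusted p 21 were higher and 6 lower. These settings use other p-values, cutoffs, probes or arrays, so their counts differ by definition. By array 1 alone, Myh6 probe 2 (0.56) and the opposite-strand Myh1 probe 3 (1.35) were called as well. For Myh1 probe 3, only the skKO channel of array 1 was well above background. The methods' t-test took the channel values of WT and skKO as separate groups and so ignored the pairing by array. The other tests used ratios, which already pair WT and skKO RNA on the same array, so no further pairing was fitted.

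The spread between mice cannot be told from these arrays. Ratios of dim probes such as those of Myh3 are less certain in size than in direction, and the size of a ratio is uncertain where either channel is near background.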
